A study of Mus musculus with 2 samples.

Results

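The Sfi1 and Glo1 loci are a pair of mouse regions listed as variable in copy number, and they were examined here for binding of Tdg, thymine DNA glycosylase, in E14 embryonic stem cells. Their members are the peaks of the Bio-Tdg library that overlap a window of 85 kb on chromosome 11 (Sfi1, 3020000 to 3105000) or of 40 kb on chromosome 17 (Glo1, 30720000 to 30760000). This gave 22 peaks of 72970, with 9 at Sfi1 and 13 at Glo1. The series held 2 Biotag ChIP-seq libraries, one from Bio-Tdg cells, which carry a Tdg that can be biotinylated, and one from BirA cells, labelled as mock (n = 1 each). BirA is the bacterial ligase that attaches biotin to a tagged protein, so that the protein and its DNA can be pulled down. The labels name E14 for both and give no other treatment, genotype or copy number. The Bio-Tdg library came with a deposited peak list, and no file of the mock was analysed. Values therefore have no replicate error, no background from the mock stands beside them, and no test between samples was made. All positions are in the build mm9, counted from 1.

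Tdg removes thymine, 5-formylcytosine and 5-carboxylcytosine from DNA and so takes part in active demethylation, the step that returns an oxidised methylcytosine to an unmodified base. Sfi1 encodes a centrin-binding protein of the centriole, named after its yeast homologue. Glo1 encodes glyoxalase 1, which detoxifies methylglyoxal with glutathione, and a tandem duplication that holds Glo1 is known from several inbred mouse strains. Where cells hold more copies of a sequence than the reference build, reads from all copies fall on the copy that the build has. Such a place gathers more reads in any sequencing library, whether or not a protein is bound there.

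The windows were chosen by the width and number of peaks already seen in this same list. The following values of coverage, width and score therefore describe them and test nothing. The same holds for where the signal ends against the windows. A table of RefSeq genes on a later build, GRCm38.p6, served for gene names and order only. In it Sfi1 overlaps the pseudogenes Pisd-ps1, Gm11400 and Fau-ps2, the RNA gene Gm33862 and the protein-coding genes Gm51877 and Eif4enif1, the last of which encodes a transporter of the cap-binding factor eIF4E. The next protein-coding gene is Drg1. Glo1 lies between Btbd9, which encodes a BTB-domain protein, and Dnah8, which encodes an axonemal dynein heavy chain, and it overlaps the pseudogene Gm8373. The ends of both genes in mm9 were not used here, so the ends of the signal are given against the windows and not against exons or start sites.

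A promoter sequence was at hand for 1 of the 2 genes, Glo1, and it is shown because the CG dinucleotides in it, in capitals, are the sites at which cytosine methylation and its oxidised forms mostly occur in mammals. The sequence is RefSeq's, from GRCm38.p6, chromosome 17, minus strand, and runs from 250 bases before the start of the gene to 50 after it.
Glo1 promoter: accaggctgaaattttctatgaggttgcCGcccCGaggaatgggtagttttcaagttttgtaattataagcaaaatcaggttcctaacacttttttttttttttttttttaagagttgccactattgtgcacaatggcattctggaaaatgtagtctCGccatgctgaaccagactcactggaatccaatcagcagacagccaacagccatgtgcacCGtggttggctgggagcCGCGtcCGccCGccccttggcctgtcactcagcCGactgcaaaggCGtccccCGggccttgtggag
It held 11 CG dinucleotides, a motif that reads alike on both strands, and 41.4% of the 32851 promoters in the table held at least as many. The median promoter held 7. Its share of G and C was 49.7%, against a median of 52.7% over all promoters in the table. Which of the Glo1 peaks below covers this sequence was not examined, because the peaks are in another build.

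At Sfi1 the peaks covered 89.6% of the window. The 1 Mb beyond its high-coordinate end was covered to 12.3%, so the window was covered 7.29 times as densely. This ratio rested on a pair of peaks, and it was 3.38 without the widest peak and 1.59 without the 2 widest. On the low side no peak precedes the window, whose first peak, at 3023438, is also the first of chromosome 11, and no flank could be taken there. Wide peaks and not many peaks made up the difference. The window held 10.6 peaks per 100 kb and its flank 9.9. Peak width had a median of 2091 bp in the window (range 511 to 40889) and 921 bp in the flank (514 to 6834).

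At Glo1 the peaks covered 52.5% of the window, against 11.1% over both flanks of 1 Mb, a ratio of 4.73. Without the widest peak the ratio was 3.10, and without the 2 widest it was 2.45. The low-coordinate side was covered to 9.70% and the high-coordinate side to 12.5%. Here the window held more peaks, 32.5 per 100 kb against 10.35 in the flanks. The median width was 1070 bp in the window (530 to 7226) and 827 bp in the flanks (508 to 4320).

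**Figure D1:**
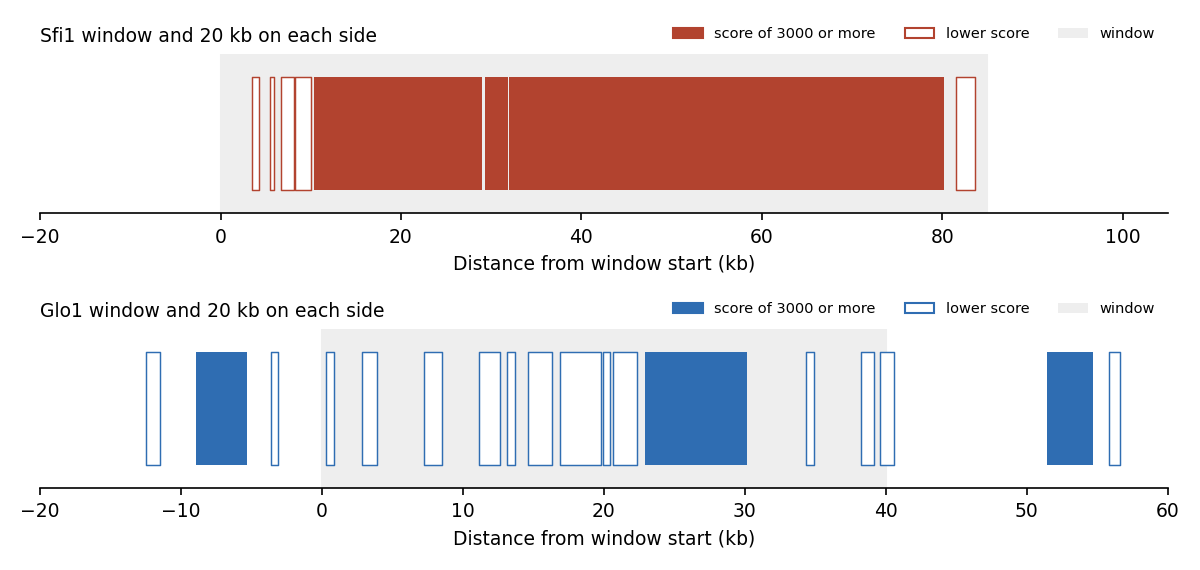
Peaks of the Bio-Tdg library in the Sfi1 window (upper, 9 peaks) and the Glo1 window (lower, 13 peaks), with 20 kb on each side, by distance from the window start in kb. Filled boxes are peaks with a score of 3000 or more and open boxes are lower-scoring peaks, and at Sfi1 the filled boxes nearly run together because the gaps between them are 36 to 314 bp.

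At the low-coordinate end of the Sfi1 window, 4 peaks of ordinary width came first. The outermost ran from 3023438 to 3024302, with a width of 865 bp and a score of 758.5. The score is the authors' own value per peak. For scores under 3000 it could be turned back into reads, given a background of 1.13 reads per kb that was fitted to the whole list, and this peak had 55 reads or 63.6 per kb. Each such number would be 1 higher under another way of writing the Poisson tail.

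The second Sfi1 peak, 3025458 to 3025968, was 511 bp wide with 22 reads or 43.1 per kb, the lowest of the locus. The third, 3026675 to 3028139, was 1465 bp wide with 170 reads, which is 116 per kb. Among the 70722 peaks of the list with recovered reads, 7 had a density at least that high, this one included. Peaks with a score of 3000 or more have no such value and may be denser. The 6088 such peaks within 10% of its width had a median of 66.2 reads per kb, and 2 of them, again with this one, reached its density. The fourth, 3028221 to 3030073, was 1853 bp wide with 137 reads or 73.9 per kb.

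From 3030350 onward the Sfi1 window was covered almost without a break by 4 peaks, all with a score of 3100. The first, 3030350 to 3049031, was 18682 bp wide, the second widest of the whole list. The next, 3049346 to 3051834, was 2489 bp wide, and the one after it, 3051952 to 3059297, was 7346 bp wide and ranked 13 by width. The widest peak of the list followed at 3059334 to 3100222, with 40889 bp. The gaps between these 4 peaks were 314, 117 and 36 bp. They therefore form close to a single stretch.

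The last Sfi1 peak, 3101553 to 3103643, came after a gap of 1330 bp and was 2091 bp wide with 173 reads or 82.7 per kb. All 5 Sfi1 peaks with recovered reads lay above the median density of peaks within 10% of their own width. Of the 5, 4 lay above 49.4 reads per kb, the median of the list. For the peak of 511 bp, at 43.1 against a median of 41.4, this says little. Its 22 reads were the fewest recovered for any peak of either window or its flanks, so it could hardly be less dense. The densities of the 5 peaks and their widths come from the same reads, so they are not separate evidence.

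A score of 3100 was shared by 1649 peaks of the list and gives no number of reads. Of the Sfi1 peaks, 4 of 9 had a score of 3000 or more, against 8 of 99 in the flank and 3.08% of the list. Peaks wider than 3 kb were 3 of 9 at Sfi1 and 4 of 99 in the flank, and 1.92% of the list. Such a score says little of the read density in a very wide peak. At the fitted rate, 489 reads, or 11.96 per kb, would take the peak of 40889 bp past 3233.06, the highest score of the list. The peak of 2489 bp would need 212 reads, or 85.2 per kb. The read density inside the 2 widest peaks, which hold 78.2% of the covered bases of the window, is thus not known.

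**Figure D2:**
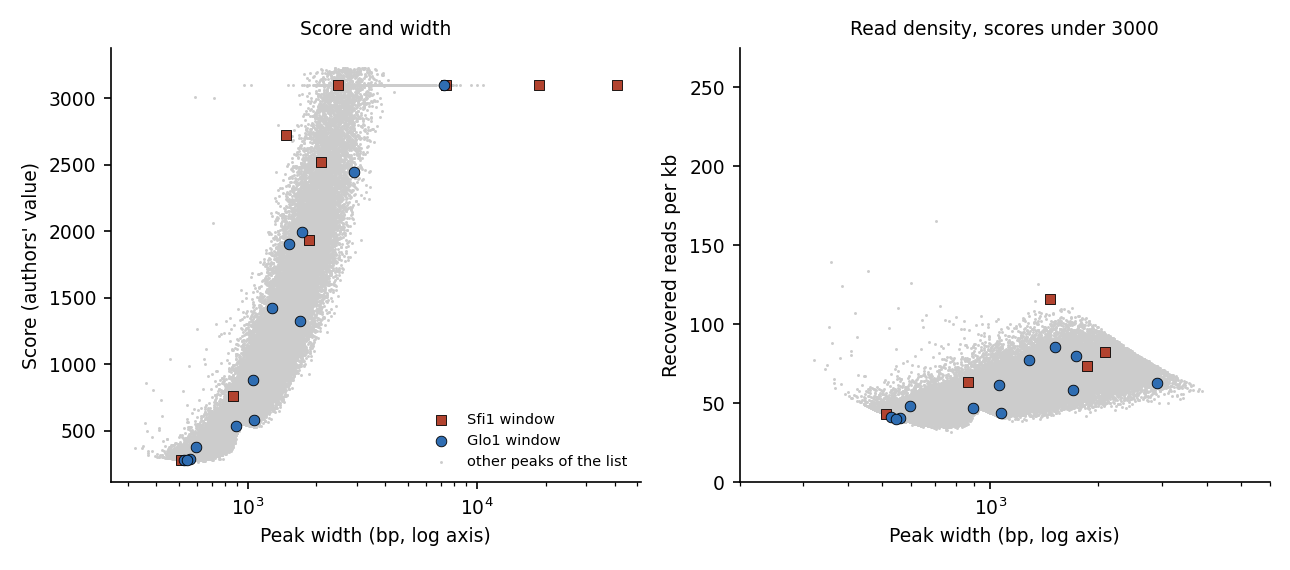
Left, score (the authors' value) against width in bp (log axis) for the Sfi1 peaks (squares), the Glo1 peaks (circles) and all other peaks of the list (grey). Right, recovered reads per kb against width for the peaks with a score under 3000. The Sfi1 peaks of 18682 and 40889 bp lie to the right of all other peaks, and the Sfi1 peak with 116 reads per kb lies at the upper edge of the right panel's cloud.

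In consecutive stretches of 10 kb, coverage of the Sfi1 window was 46.2% in the first, 97.2%, 96.9% and 98.5% in the next, while each of the 4 after those was covered in full. The last 5 kb were covered to 46.3%. When peaks less than 1 kb apart were merged, 7 of the 9 peaks formed 1 run of 74.8 kb, the longest of 59221 runs in the list.

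The Sfi1 signal ended sharply on the high-coordinate side. After the last peak, at 3103643, no peak was called for 61.5 kb, and the next one ran from 3165127 to 3167471 with 2345 bp, a score of 2803 and 82.3 reads per kb. The first 10, the second 10 and the following 30 kb beyond the window were all covered to 0.0%. Coverage was 24.3% from 50 to 100 kb, which includes the widest peak of the flank, 3187779 to 3194612 with 6834 bp, and 25.6% from 100 to 200 kb. It was 8.81% from 200 to 500 kb and 11.8% from 500 to 1000 kb. The stretch of 61.5 kb was longer than any between peaks of the flank, where the longest was 53561 bp, but 9.85% of the gaps in the list were at least as long. A gap of this length is therefore common in the list.

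**Figure D3:**
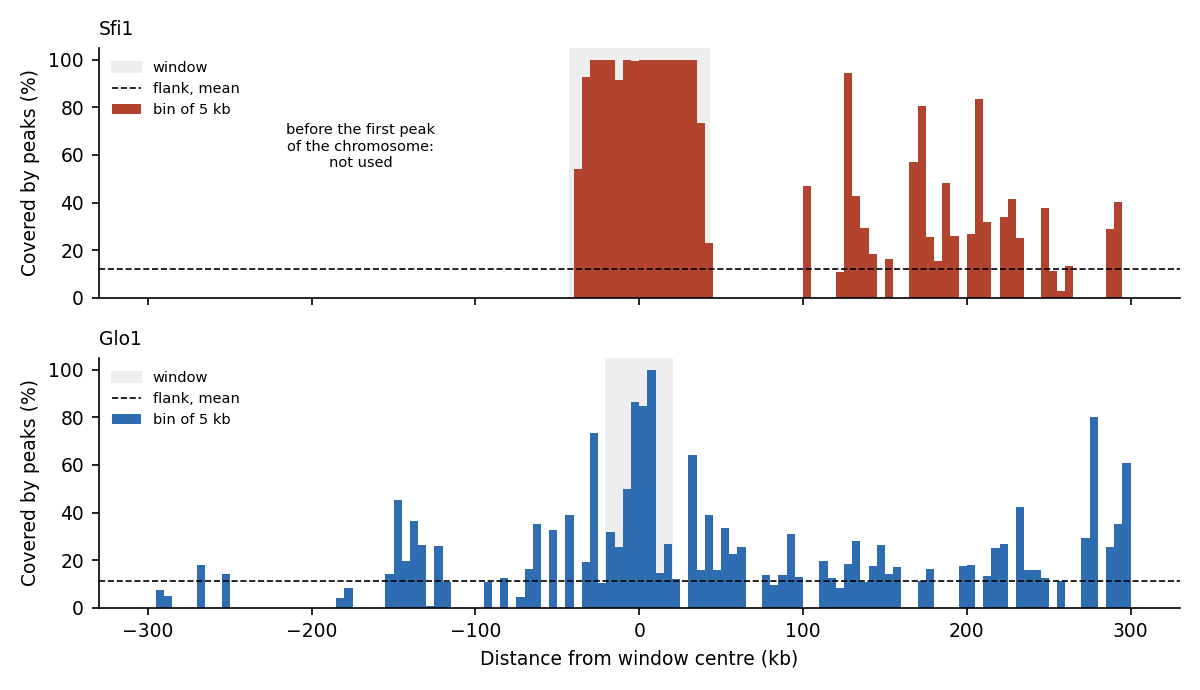
Share of each 5 kb bin covered by peaks, in percent, by distance from the window centre in kb, for Sfi1 (upper) and Glo1 (lower). The grey band is the window and the dashed line the mean of the flank (12.3% at Sfi1, high-coordinate side only, and 11.1% at Glo1). Coverage at Sfi1 drops from the window to 0.0% for 50 kb. At Glo1 covered bins are found on both sides of the window, with bins at 0.0% among them.

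At Glo1 the 13 peaks lay at a range of widths, and 1 of them had a score of 3000 or more. This peak, 30742908 to 30750133, was 7226 bp wide with a score of 3100 and ranked 15 by width in the whole list. It was the widest within the window and its flanks, where the widest were 30022959 to 30027182 with 4224 bp on the low side and 31431009 to 31435328 with 4320 bp on the high side. For its width, 278 reads, or 38.5 per kb, would take it past the highest score of the list. In the flanks 8 of 207 peaks had a score of 3000 or more.

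Before this peak came a group of closely spaced Glo1 peaks. The peak 30731136 to 30732645 was 1510 bp wide with 129 reads or 85.4 per kb, the highest density of the locus. It was followed by 30733112 to 30733671, 560 bp wide with 41.1 reads per kb. The peak 30734583 to 30736308 was 1726 bp wide with 80.0 reads per kb. The narrow peak of these had about the density usual for its width, 41.7 reads per kb in the median of peaks within 10% of it. It had 23 reads, and 22 was the fewest recovered for any peak of either window or its flanks. A called peak of this width could thus hardly be less dense, so the likeness says little.

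The second widest Glo1 peak, 30736899 to 30739817, had 2919 bp and 183 reads or 62.7 per kb. A gap of 85 bp, the shortest of the locus, led to 30739903 to 30740446, 544 bp wide with 40.4 reads per kb. The peak 30740677 to 30742377 was 1701 bp wide with 58.8 reads per kb. Merging peaks less than 1 kb apart joined 7 peaks, from 30731136 to 30750133, into a run of 19.0 kb that was covered to 85.2% and was the eighth longest of the 59221 runs.

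The other Glo1 peaks lay outside that run. On the low side of it were 30722843 to 30723912, 1070 bp wide with 43.9 reads per kb, and 30727203 to 30728483, 1281 bp wide with 77.3 reads per kb. The first peak of the window, 30720310 to 30720839, was the narrowest, with 530 bp and 41.5 reads per kb. On the high side were 30754309 to 30754906 with 598 bp and 48.5 reads per kb, 30758234 to 30759125 with 892 bp and 47.1, and 30759555 to 30760610 with 1056 bp and 61.6. The last of these crosses the window end and counted only with its 446 bp inside.

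Of the 12 Glo1 peaks with recovered reads, 5 lay above the median density of peaks within 10% of their width and 6 above the median of the list. The median of the 12 Glo1 peaks was 53.6 reads per kb, against 48.6 in the flanks. The 12 peaks were thus spread on both sides of the usual density for their width. Those of 530, 544 and 560 bp lay below it with 22, 22 and 23 reads. That is near the fewest recovered in either window or its flanks, so their place says little. The widest Glo1 peak, of 7226 bp, has no recovered density and is not among the 12. At Sfi1 the median of the 5 peaks with recovered reads was 73.9 reads per kb, against 48.8 in its flank. Neither comparison with a flank matches the widths of the peaks. The Sfi1 peak at this median was 1853 bp wide. Peaks within 10% of that width had a median of 71.5 reads per kb, and 42.6% of them were at least as dense as it.

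In consecutive stretches of 10 kb the Glo1 window was covered to 28.8%, 68.1%, 92.4% and 20.7%. The middle of the window was covered most, and coverage was lower at both ends before the window was left. The nearest peak outside on the low side was 30716351 to 30716878, 528 bp wide, a score of 294 and 3.43 kb from the first member. On the high side it was 30771462 to 30774669, 3208 bp wide, a score of 3100 and 10.9 kb from the last member.

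At Glo1 peaks were also called just beyond the low-coordinate end of the window. The first 10 kb outside were covered to 42.0% on the low side, by 2 peaks, the wider of 3671 bp. On the high side the first 10 kb were covered to 6.10%, all of it from the member peak that crosses the window end. The second 10 kb were covered to 9.60% on the low side and 40.04% on the high side. Between 20 and 50 kb coverage was 20.5% on the low side and 22.8% on the high side, still above the 11.1% of the whole flanks. From 50 to 100 kb it was 3.87% on the low side and 11.3% on the high side. Joining peaks less than 5 kb apart gave a run of 16 peaks and 53.1 kb, from 30707516 to 30760610, which ranked 39 among 39792 runs and extended past the low end of the window. At Sfi1 the same step joined the 9 peaks into a run of 80.2 kb that was covered to 94.99%, ranked 6 among those runs and stayed within the window.

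Windows of the same length along the autosomes gave the range of coverage in the list. Of 28318 windows of 85 kb outside Sfi1, 0 (0.0%) were covered at least as much as its 89.6%. Their median was 0.715%, their 99th percentile 26.6% and the highest 55.95%, on chromosome 10 from 80801555 to 80886554. Of 60188 windows of 40 kb outside Glo1, 25 (0.0415%) reached at least its 52.5%, and 2 of the 25 lie in the Sfi1 window. The Sfi1 window was thus covered more than every window laid out for this comparison, whereas the Glo1 window had others at its level. Both loci were chosen with their peaks in view, and the other windows were laid end to end without regard to peaks. These ranks are therefore a description.

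**Figure D4:**
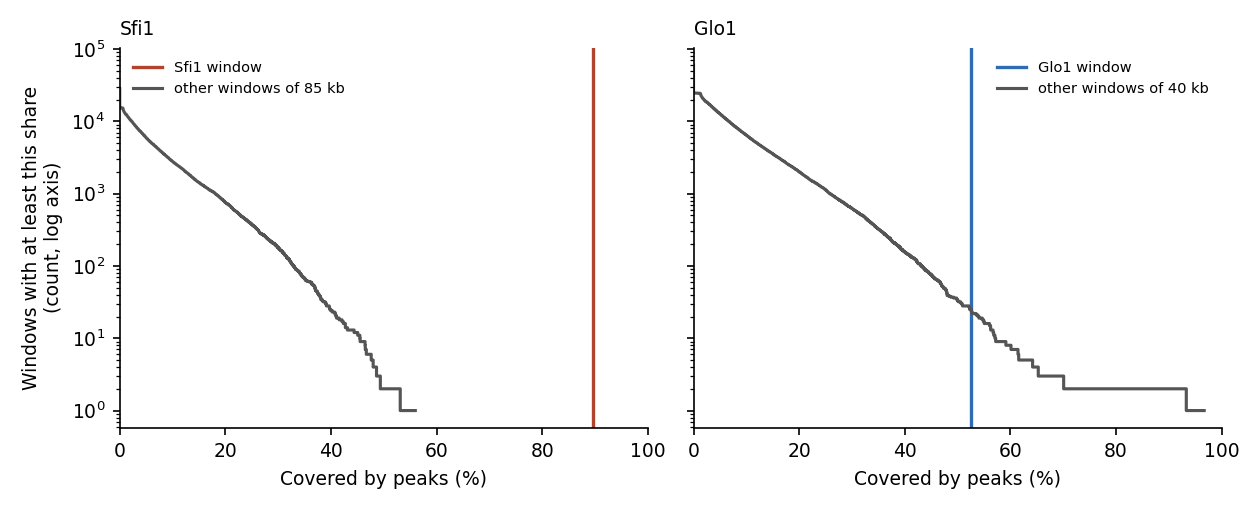
Number of other autosomal windows (log axis) with at least the share covered by peaks on the horizontal axis, in percent, for windows of 85 kb beside Sfi1 (left) and of 40 kb beside Glo1 (right). Vertical lines mark the loci, at 89.6% for Sfi1, beyond the highest other window at 55.95%, and at 52.5% for Glo1, which 25 others reach.

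The place of Sfi1 at the start of its chromosome was compared with the starts of the other autosomes. In the 85 kb from the first peak of each, the 18 other autosomes were covered to between 0.600% and 20.98%, with a median of 2.59%. The highest were chromosome 7 with 20.98% and chromosome 9 with 17.6%. On chromosome 11 the same stretch, which is nearly the Sfi1 window, was covered to 89.6%. Sfi1 was chosen with its wide peaks in view, so its place above the other starts is a description. Whether the place on the chromosome has a part in the signal was not tested. The starts are also not all alike, since the first peak of chromosome 14 lies at 6093484, further in than on the others.

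A gain in copies and denser binding cannot be told apart from a single peak list. Extra copies confined to a gene would predict a signal that stops at the ends of the gene. A copied segment longer than the window would not predict a stop there. The length of any copied segment in these cells is not known here. At Sfi1 the covered stretch began and ended within the window. The window was chosen with these peaks in view, so this is a description and does not test the prediction. On the low side there is no flank to set beside the stretch, since its first peak is the first of the chromosome. At Glo1 coverage was uneven within the window, and peaks were also called just beyond it on the low side. On the high side the next peak came after a gap of 10.9 kb. Copy number was not measured in these cells, the ends of the genes in mm9 were not used, and the part of copy number in either signal was not tested.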

How the data were processed

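The file analysed was the peak list of the Bio-Tdg ChIP-seq library, with 1 row per peak. The submitters' processing notes name the build mm9 and, without saying what each did, MACS 1.4.1, Bowtie 0.12.7 and CASAVA 1.8. How peaks were thresholded, which reads were kept and which control was used is not given in the sources used here. Library depth is unknown. Each peak has a score that the authors deposited, which in the output of MACS is a multiple of minus the log10 of a p-value.

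The members and the lists were chosen with earlier results of these data known. Covered share is the percentage of bases under peaks, clipped to the window. The flank was 1 Mb on each side, without positions before the first peak of the chromosome. Peaks that cross a window end counted as members. Reads were recovered by fitting 1 background rate, so that each score matched the upper Poisson tail beyond some whole read number, for a width of no less than 370 bp. All 70722 scores below 3000 lay within 0.01 of such a value, and the step was tested on simulated data. The other 2248 gave no reads. Reads carry no molecular identifiers here. Windows for comparison were laid end to end from the first peak of each autosome. Named peaks were all members (the narrowest Glo1 peak beyond the 12 that the rule names), the nearest outside each window and the widest of each flank. With 1 library, no test was made. Alternatives were a score of at least 500, merging within 1 kb, a window widened by 10 kb, leaving out the widest peak, and other flanks. Leaving out the 2 widest peaks and shifting the comparison windows were added after seeing the data. Figures were drawn with matplotlib 3.10.9, and computing used pandas 2.3.3, scipy 1.17.1 and numpy 2.4.6 under Python 3.11.15.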

Additional observations from a re-analysis of the deposited data

How the results depend on the processing

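Values were compared under 53 alternatives, and 18 of these moved a value beyond its binomial interval over bases (covered share) or by over 1.5 times (other values). The interval treats each base as a separate draw, although bases under the same peak are not, so it is very narrow. All alternatives for covered share fell outside it, and that count therefore says little of how stable the shares are. The covered share of the Sfi1 window, 89.6%, was 89.03% with scores below 500 left out, 91.4% with peaks within 1 kb merged, 72.6% with the window widened by 10 kb on each side, 41.5% without its widest peak and 19.6% without its 2 widest. For Glo1, 52.5% became 46.9%, 60.6%, 43.02%, 34.4% and 27.1% under those 5 settings. The ratio to the flank was 3.38 at Sfi1 and 3.10 at Glo1 without the widest peak, and 1.59 and 2.45 without the 2 widest, so it stayed above 1 in each. Merging lowered the peaks per 100 kb to 3.53 at Sfi1 and 14.9996 at Glo1. The median score at Glo1, 882, was 1426 without scores below 500 and 577 without the 2 widest peaks. Shifting the comparison windows by 0.5 of their length left 0 of 28309 at or above Sfi1 and 29 of 60181 at or above Glo1. At Sfi1 the flank lies on the high side only, so that alternative gave no separate value there. No paired analysis was possible because a single library, Bio-Tdg, has values. The calling threshold and the depth are unknown, so a stretch without peaks does not show missing binding.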

Other observations

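Besides the Sfi1 window, 23 other autosomal windows of 40 kb were covered at least as much as Glo1, from 52.5% to 70.1%. They lie on 12 chromosomes and hold 9 to 19 peaks each, with a median of 14. Their widest single peaks ran from 2510 to 10666 bp, with a median of 5007 bp, against 7226 bp in the Glo1 window. The most covered were chromosome 10, 79591555 to 79631554, with 70.1% and 11 peaks, chromosome 8, 123020624 to 123060623, with 65.3% and 14 peaks, and chromosome 10, 80791555 to 80831554, with 64.2% and 14 peaks. These windows were picked by the values given for them.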
